A study of Mus musculus with 4 samples.

Results

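The regions described here are 1801 NR1D1 peaks that lie inside genes and were called in vascular smooth muscle cells kept with PBS but have no overlapping peak in cells kept with vasostatin-2. A peak was taken when it shared not a single base with any peak of the vasostatin-2 list, and when its summit lay inside a RefSeq gene and more than 1 kb from the ends of every gene. They were 24.4% of the 7377 peaks of the PBS list (95% Wilson interval 23.5 to 25.4%) and 71.2% of the 2530 PBS peaks that met the position rule alone. The regions were chosen by the called peak positions of these 2 libraries, so that share is a description. Over the PBS list as a whole, 64.4% of peaks had no vasostatin-2 counterpart.

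The cells were primary WT smooth muscle cells from mouse aorta, either treated for 24 h with vasostatin-2, a peptide cut from chromogranin A, or held for 24 h in PBS (phosphate-buffered saline). CUT&Tag uses an antibody to tether a transposase to chromatin, which cuts out the DNA beside the bound protein for sequencing. Of 4 labelled libraries, all carrying the same batch label, the 2 NR1D1 libraries were used, 1 per treatment; those made with IgG were left aside. With 1 library per treatment there is no replicate error, no difference between treatments was tested, and every interval covers counting error only. The labels do not give the number of animals behind the cells, and peak lists cannot check the cell type, because they do not measure expression.

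NR1D1, also called REV-ERB alpha, is a heme-binding nuclear receptor of the circadian clock that represses transcription. It binds the element AGGTCA alone, with an A/T-rich stretch before it, or as a direct repeat with a gap of 2 bases, and recruits the corepressor NCoR and the deacetylase HDAC3. Among its known targets are Arntl, which encodes the clock activator BMAL1, and Nr1d1 itself. Many of its sites in other tissues lie in introns and between genes as well as at promoters.

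A subset of the regions overlapped the bases around an annotated transcription start that lies inside a longer gene, and sequence is shown for 5 of them. Capitals mark AGGTCA on either strand, which reads TGACCT when it lies on the other strand. Each sequence is the part of the peak that lies up to 250 bases before the start, 5′ to 3′ on the gene's strand, from RefSeq on GRCm38.p6, the assembly of mm10. Aldoa encodes the glycolytic enzyme aldolase A, Per1 a repressor of the clock, Srf the serum response factor that drives smooth muscle genes, Nr4a1 an orphan nuclear receptor and Cdkn1a the cell cycle inhibitor p21. The 5 were picked after their values were seen, Aldoa and Per1 because they rest on many fragments and hold the element. The other 3 are well-known genes without it in the bases shown, which need not be the whole peak. The Nr4a1 summit lies 576 bp before the start and the Aldoa summit 30 bp past its start, both outside the bases shown.
Aldoa (chr7:126799255-126799504, - strand): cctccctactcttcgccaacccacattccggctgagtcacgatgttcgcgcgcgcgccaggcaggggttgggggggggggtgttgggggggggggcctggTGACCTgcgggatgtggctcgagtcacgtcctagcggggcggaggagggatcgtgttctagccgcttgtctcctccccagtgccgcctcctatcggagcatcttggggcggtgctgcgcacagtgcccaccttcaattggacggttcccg
Per1 (chr11:69098699-69098925, + strand): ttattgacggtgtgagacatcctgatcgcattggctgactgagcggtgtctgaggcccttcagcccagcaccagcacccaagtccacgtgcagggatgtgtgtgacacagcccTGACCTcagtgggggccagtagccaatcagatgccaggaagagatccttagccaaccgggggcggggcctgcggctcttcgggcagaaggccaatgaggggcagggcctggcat
Srf (chr17:46556163-46556409, - strand): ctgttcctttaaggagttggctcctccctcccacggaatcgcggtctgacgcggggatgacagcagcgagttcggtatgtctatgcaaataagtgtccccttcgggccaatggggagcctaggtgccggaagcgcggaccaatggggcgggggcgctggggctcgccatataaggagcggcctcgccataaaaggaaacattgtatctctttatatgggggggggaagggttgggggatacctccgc
Nr4a1 (chr15:101266596-101266845, + strand): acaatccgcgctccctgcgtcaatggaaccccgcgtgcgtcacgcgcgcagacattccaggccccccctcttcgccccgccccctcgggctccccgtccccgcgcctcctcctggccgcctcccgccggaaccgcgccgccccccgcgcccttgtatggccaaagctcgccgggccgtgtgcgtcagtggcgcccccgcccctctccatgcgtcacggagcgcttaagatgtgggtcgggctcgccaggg
Cdkn1a (chr17:29093634-29093768, + strand): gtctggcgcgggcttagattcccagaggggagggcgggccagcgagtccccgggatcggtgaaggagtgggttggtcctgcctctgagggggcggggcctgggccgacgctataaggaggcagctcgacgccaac

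The Aldoa peak rested on 29 fragments at its summit and had an 8.60-fold enrichment over local background. The Per1 peak had 33 fragments and a 4.34-fold enrichment. Nr4a1 had 23 fragments, Cdkn1a 13 and Srf 12. Across all the regions, 112 overlapped a window from 250 bases before to 50 bases after an annotated start, covering 128 windows. The set of starts left out chromosome 18 and many genes on other chromosomes, so only listed starts are counted. AGGTCA on either strand was present in 23 of those windows (18.0%, Wilson interval 12.3 to 25.5%). It was present in 17.6% of all 4728 windows whose start lies more than 1 kb from every gene end, and in 16.3% of all 32851 windows. The share in windows under these peaks was thus close to that of windows at large. These counts take whole windows, including bases outside the peak. In 86 members, 60 or more bases of the peak itself lay in the part of a window before its start. Of these, 7 held AGGTCA on either strand within those bases. The direct repeat of AGGTCA with a gap of 2 bases was found in 0 of the 128 windows. The letters GGGCGG, the GC box, were in 65.6% of the windows under these peaks (57.1 to 73.3%) and in 29.5% of all windows at such starts. Median GC content was 63.3% in the windows under these peaks, against 51.7% in all windows at such starts, and the median number of CpG was 21 against 6. The windows under these peaks were therefore richer in GC and in CpG. Windows under shared in-gene peaks had a median GC content of 64.0%, and windows under in-gene peaks of the vasostatin-2 list alone had 63.0%.

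Most of the regions were small. The median peak had 6 fragments at its summit, with a range of 4 to 167, and 78.0% had between 4 and 8. The median fold enrichment was 4.67 (quartiles 4.25 and 5.63) and the median width 253 bp. The 729 shared in-gene peaks of the same list had a median of 10 fragments, a 6.004-fold enrichment and a width of 362 bp. The 2816 in-gene peaks found in the vasostatin-2 list alone had a median of 6 fragments, a 4.75-fold enrichment and a width of 234 bp. The PBS-only peaks were thus smaller than shared peaks and close in size to their vasostatin-2-only counterparts. Fold and fragments are from each library's own list and were not put on a common scale.

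The share of in-gene PBS peaks with no vasostatin-2 counterpart fell with size. It was 94.0% of peaks with 4 to 5 fragments, 78.3% with 6 to 8, 57.5% with 9 to 12, 34.8% with 13 to 20, and 15.6% (20 of 128, interval 10.4 to 22.9%) with 21 or more. In the vasostatin-2 list the shares without a PBS counterpart were 97.4%, 86.0%, 61.8%, 36.1% and 11.5% over the same classes. Small peaks of either library seldom had a counterpart, and large ones usually did. A list holds no value for a place where no peak was called, so less NR1D1 and a signal just under the calling threshold cannot be told apart here.

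**Figure D1:**
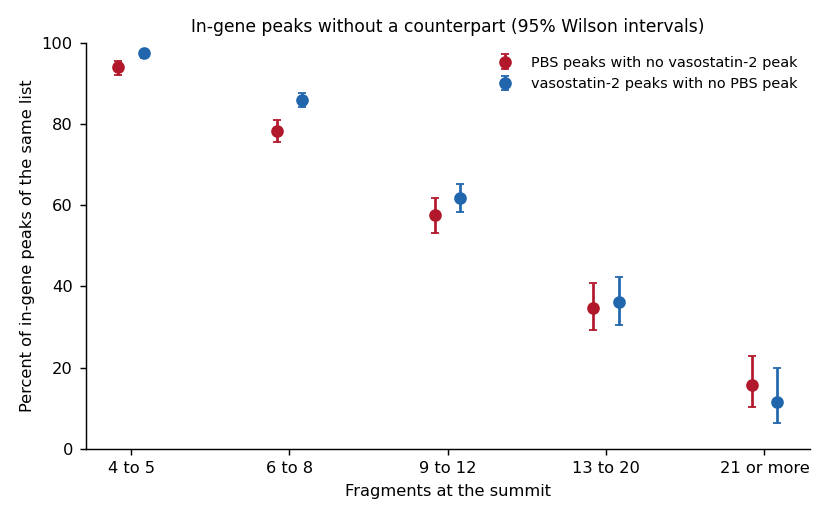
Percent of in-gene peaks without a counterpart in the other library (vertical axis) by number of fragments at the summit (horizontal axis), for PBS peaks in red and vasostatin-2 peaks in blue, with 95% Wilson intervals. The PBS share drops with every class, 94.0% at 4 to 5 fragments and 15.6% at 21 or more, and the vasostatin-2 share drops alongside it.

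By location, 71.2% of in-gene PBS peaks were PBS-only, as were 56.0% of PBS peaks within 1 kb of a gene end (54.2 to 57.8%) and 68.4% of PBS peaks between genes (66.2 to 70.4%). In the vasostatin-2 list, 79.1% of in-gene peaks were without a PBS counterpart. Some regions lay near a vasostatin-2 peak without touching it. The gap was at most 500 bp for 44 of them (2.44%) and at most 10 kb for 241 (13.4%), and its median was 61.1 kb. At the edge of the overlap rule, the peak in Kat5, which encodes a histone acetyltransferase, abutted a vasostatin-2 peak with a gap of 0 bp, and peaks in Shb and Col6a6 were 2 and 3 bp away. Just outside it, peaks in Focad and Pakap overlapped a vasostatin-2 peak by 4 bp each and one in Sbf2 by 6 bp. At the edge of the distance rule, members in Pnrc1 and Lmln lay 1004 bp from a gene end and one in Stat5a 1007 bp. Just outside it were peaks at Gm36584 (1000 bp), Fbxo24 (986 bp) and Tcf19 (985 bp).

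The highest peak was in Tmem267, at chr13:119598953-119599159, with 167 fragments and a 25-fold enrichment. It was 2728 bp from the nearest vasostatin-2 peak, and the gene also held 1 shared and 1 vasostatin-2-only peak. Next by enrichment were peaks in Gm36264 (38 fragments, 17.8-fold) and in Abhd6, a monoacylglycerol lipase gene (29 fragments, 15.3-fold). The other 7 of the 10 highest, in Gm32543, Msl2, 4930543I03Rik, Rundc3b, Adam28, Myrfl and Jmjd4, had 14 to 22 fragments and a 10.3-fold to 11.3-fold enrichment. Sfi1, which encodes a centrosomal protein, held 3 members with 39, 38 and 32 fragments but only a 2.60-fold, 3.32-fold and 2.59-fold enrichment. The local background under these 3 peaks was 14.4, 10.7 and 11.7 fragments, against a median of 0.411 fragments over all members, and Sfi1 also held 7 shared and 4 vasostatin-2-only peaks. Whether reads at Sfi1 also match other copies of its sequence was not tested. Also among the 10 with most fragments were Per1, Aldoa, Kdm6b, a histone demethylase gene (29 fragments), and Midn (28 fragments). The local background was also above the members' median at Tmem267 (5.72 fragments), Midn (5.11), Kdm6b (3.065) and Aldoa (2.49). The Midn and Kdm6b peaks lay 348 and 797 bp from a vasostatin-2 peak.

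The members lay in 1670 genes, 5.11% of the 32699 genes that have any interior, meaning bases more than 1 kb from every gene end. Of these hosts 1362 were protein-coding, 7.09% of 19211 protein-coding genes with interior, 298 were lncRNA genes and 10 were of other kinds. A total of 84 members lay in more than 1 gene. Expected numbers were set by spreading the members evenly over the 1147 Mb of interior, which gives 1.57 per Mb. Density fell as genes grew longer. It was 2.43 members per Mb in genes up to 10 kb (Poisson interval 1.96 to 2.97), 2.08 at 10 to 30 kb, 1.83 at 30 to 100 kb, 1.54 at 100 to 300 kb, 1.05 at 300 to 1000 kb and 0.739 over 1000 kb (0.569 to 0.943). Observed over expected was 1.55 in the shortest class and 0.470 in the longest. Long genes still held more members each: 62.5% of the 64 genes over 1000 kb were hosts, against 0.748% of genes up to 10 kb.

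**Figure D2:**
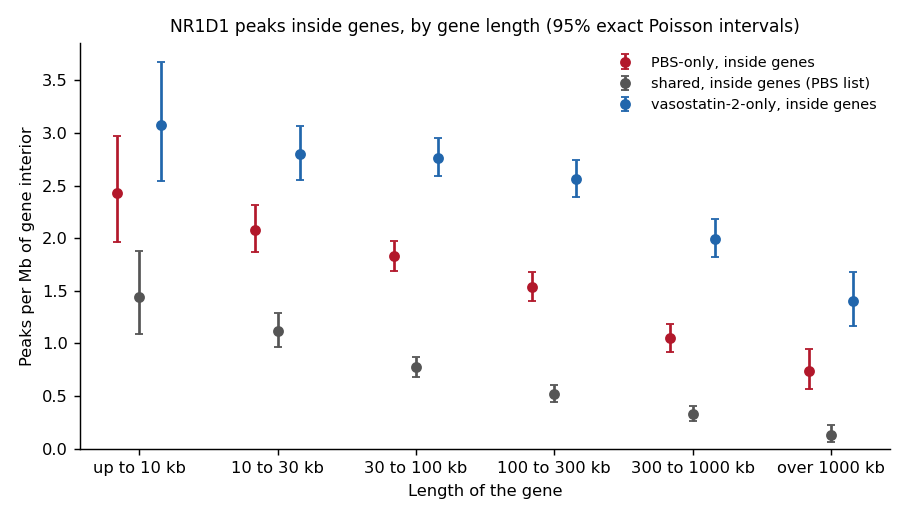
Peaks per Mb of gene interior (vertical axis) by length of the gene (horizontal axis), for PBS-only in red, shared in grey and vasostatin-2-only in blue, with 95% exact Poisson intervals. The PBS-only density is 2.43 per Mb in the shortest genes and 0.739 per Mb in the longest, and the shared and vasostatin-2-only densities also decrease with length.

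The density in genes under 30 kb was 2.22 times that in genes over 300 kb for the members (1.92 to 2.57). The ratio was 4.26 for shared in-gene peaks (3.34 to 5.48) and 1.55 for vasostatin-2-only in-gene peaks (1.38 to 1.74). The 3 intervals did not overlap, so with peaks of every size counted the members stood between the other classes in this respect. For larger members the ratio was 6.29 (4.63 to 8.68) with at least 8 fragments, a setting chosen after seeing the data. It was 4.07 (2.76 to 6.09) with q under 1e-05 and 2.50 (1.93 to 3.25) with a fold at or above the median of the PBS list. The other classes were not limited in this way, so the order of the classes among larger peaks was not tested. Per chromosome, density was highest on chromosome 19 (2.79 per Mb), 11 (2.26) and 17 (2.22), and lowest on chromosome 3 (0.912) and X (0.566), with 0 members on Y. Chromosome X also had the lowest vasostatin-2-only density among chromosomes other than Y, at 0.566 per Mb, against 2.46 per Mb over all chromosomes.

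Host genes rarely held several members. Among protein-coding genes 1190 held 1, against 1087 expected from length alone, 142 held 2, against 142.9, and 30 held 3 or more, against 48.4. With a separate rate for each length class the last expectation was 21.3. The most in any gene was 4, reached in genes such as Cuedc1, Pebp4, Kif6 and Syn3. In Cuedc1, 95 kb long, the 4 members had 14, 13, 8 and 4 fragments, 27.7 times the expected number. Next to Sfi1 (33.1 times) and Cuedc1, the highest ratios among genes with 3 or more members were in Rab11fip4 (21.9 times) and Camk2b (20.2 times), which encodes a calmodulin-dependent kinase. Then followed Slc16a10, Ubr4, Prom1, Itgb6, Aldh1a1 and Pebp4, at 12.3 to 18.3 times. The genes named in this paragraph were picked from all hosts by their counts and ratios, so high ratios follow from that choice.

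In every length class a larger share of protein-coding hosts than of other protein-coding genes held a vasostatin-2-only in-gene peak, with intervals that overlapped only above 1000 kb. At 100 to 300 kb, 40.9% of hosts held a vasostatin-2-only in-gene peak (36.2 to 45.8%), against 28.3% of other genes (26.1 to 30.7%). Shared in-gene peaks were in 11.6% of hosts of that length (8.82 to 15.2%) and in 7.05% of other genes (5.85 to 8.47%). A PBS peak at a gene end was found for 10.6% of these hosts (7.94 to 14.0%) and 12.1% of other genes (10.6 to 13.9%), intervals that overlap. Gene length still varies inside a class, and its part in these shares was not tested.

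Members gathered at starts annotated inside genes. The starts used were those of 27025 genes, against 49943 genes in the gene set. Some hosts outside chromosome 18, such as Ywhaz and Actb, had no start of their own among them. Members near an unlisted start could be missed, so the shares, ratios and distances below hold for listed starts only. Of 1723 members off chromosome 18, which was not analysed for starts, 160 (9.29%, 8.005 to 10.8%) had their summit within 1 kb of an annotated start, although such places make up 0.830% of interior, 11.2 times the expected number. Within 250 bp there were 96 members, 27.8 times the expected 3.45 (22.6 to 34.0). Between 1 and 5 kb the ratio was 1.20 and beyond 100 kb 0.607. The share within 1 kb was 17.2% of shared in-gene peaks (14.6 to 20.1%) and 2.66% of vasostatin-2-only in-gene peaks (2.12 to 3.34%). The members thus lay near starts less often than shared peaks and more often than vasostatin-2-only peaks, with no overlap of intervals. Larger members lay near starts more often: 4.59% at 4 to 5 fragments, 9.58% at 6 to 8, 15.6% at 9 to 12, 18.8% at 13 to 20 and 25% at 21 or more (5 of 20, 11.2 to 46.9%). Vasostatin-2-only peaks had 2.08%, 3.07%, 3.26%, 1.14% and 0% over the same classes, the last being 0 of 9.

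**Figure D3:**
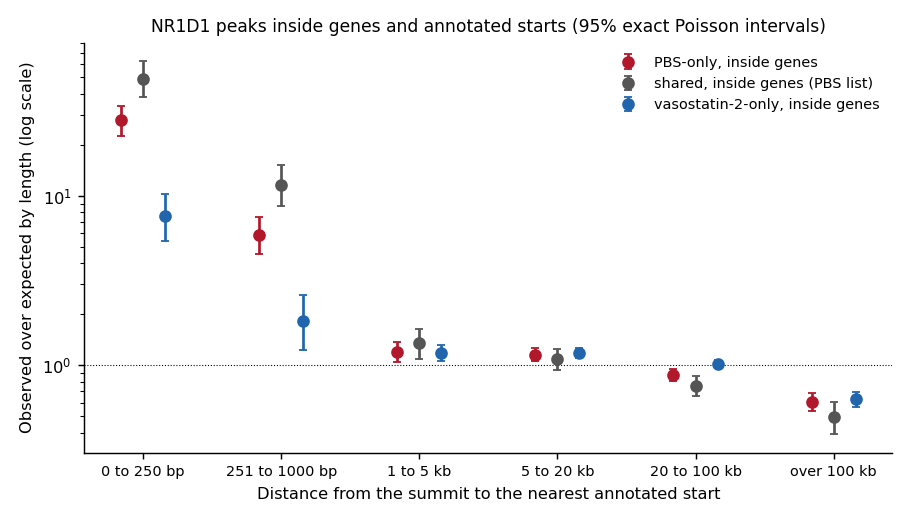
Observed over expected number of peaks (vertical axis, log scale) by distance from the summit to the nearest annotated start (horizontal axis), for PBS-only in red, shared in grey and vasostatin-2-only in blue, with 95% exact Poisson intervals and 1 as a dotted line. The PBS-only value is 27.8 within 250 bp, below the shared value of 49.2 and above the vasostatin-2-only value of 7.56. Only listed starts are used, and some genes have none.

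Named members close to a start included Gpx4, which encodes a lipid peroxidase (summit 11 bp away, 10 fragments), Rbpj, the DNA-binding factor of Notch signalling (12 bp, 11 fragments), Aldoa (30 bp) and Srf (39 bp). Kat5 (117 bp), Stat5a (126 bp), Per1 (140 bp), Hdac7 (193 bp), Midn (213 bp) and Stim1, a calcium sensor of the endoplasmic reticulum (362 bp), followed. Position along the gene was read where the strand is given. In genes of 30 to 100 kb, cut into 5 equal parts in the 5′ to 3′ direction, the members fell 24.6%, 26.3%, 18.8%, 18.5% and 11.8% into the parts. The parts near the 5′ end were favoured and the last held the fewest (9.0 to 15.3%), although it makes up 18.8% of interior. In genes over 100 kb the shares were even, at 18.5 to 21.2%.

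**Figure D4:**
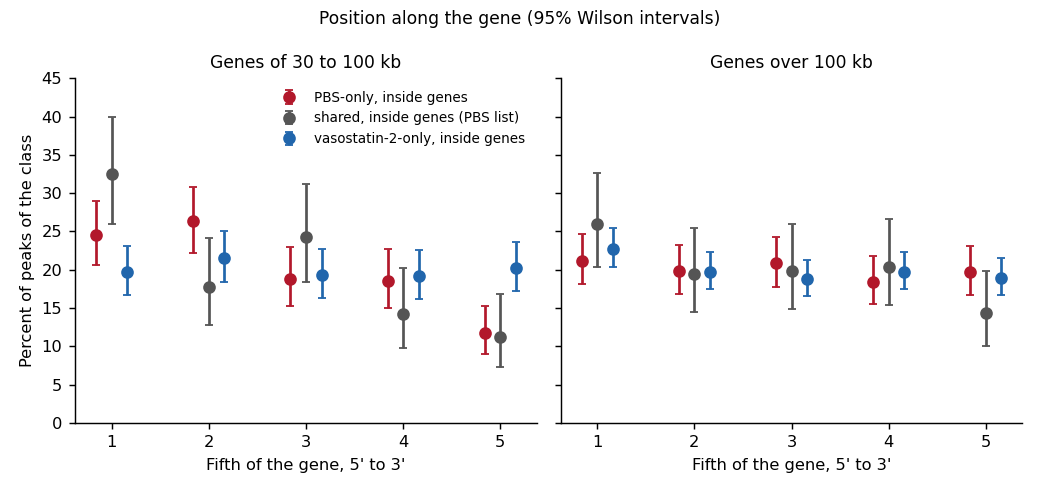
Percent of peaks (vertical axis) in each of 5 equal parts of the gene, 5′ to 3′ (horizontal axis), in genes of 30 to 100 kb (left) and over 100 kb (right), for PBS-only in red, shared in grey and vasostatin-2-only in blue, with 95% Wilson intervals. In the shorter genes the PBS-only share is 24.6% in the first part and 11.8% in the last, and in the longer genes it stays between 18.5% and 21.2%.

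Of 26 genes of the core clock and its output, 4 held 6 members, against 2.80 expected at the rate of all protein-coding genes, 2.14 times the expected number (Poisson interval 0.787 to 4.67). The interval includes 1. It left out 1 where a shared peak needed summits within 200 bp (3.01 times, 1.38 to 5.71). Per1 held 2, at chr11:69098651-69098925 with 33 fragments and at chr11:69097272-69097518 with 19 fragments and a 2.62-fold enrichment, 3176 and 1797 bp from the nearest vasostatin-2 peak. Nr1d1 held 1, at chr11:98773798-98774201, with 21 fragments and a 4.81-fold enrichment, 1353 bp from the gene end and 864 bp from a vasostatin-2 peak. Both genes also had a peak at a gene end in the vasostatin-2 list and in the PBS list. The local background was 6.83 and 6.64 fragments at the 2 Per1 peaks and 3.57 fragments at the Nr1d1 peak, above the members' median of 0.411. Arntl held 2 smaller members, with 7 and 5 fragments, and 1 shared peak. Rora, a nuclear receptor gene that activates Arntl, held 1 with 7 fragments.

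Corepressor genes held 5 members in 3 of 14 genes, against 3.23 expected, 1.55 times (0.503 to 3.62). Among peaks of at least 8 fragments, a setting chosen after seeing the data, the ratio was 4.97 (1.61 to 11.6). It was 1.92 (0.0487 to 10.7) with q under 1e-05 and 0.971 (0.0246 to 5.41) with a fold at or above the median of the PBS list. In every setting other than at least 8 fragments, the interval included 1. Hdac5 had 2, with 9 and 8 fragments, and Hdac7 had 1 with 8 fragments. Both encode class IIa deacetylases.

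Contractile smooth muscle genes held 9 members in 7 of 28 genes, against 8.87 expected, which is the rate of protein-coding genes at large. Myh11, the smooth muscle myosin heavy chain gene, held 1 at chr16:14237237-14237528 with 12 fragments and a 7.29-fold enrichment. Vcl, the vinculin gene, held 2, with 14 and 11 fragments and an 8.75-fold and a 5.23-fold enrichment. Prkg1, the cGMP-dependent kinase gene, held 2 with 5 and 4 fragments, and Itga8, Srf and Dmd held 1 each. Acta2, the smooth muscle actin gene, and Chga, the chromogranin A gene, held 0, against only 0.0208 and 0.0127 expected from their short interiors. The actin cytoskeleton and focal adhesion list held 7 members in 7 of 41 genes, against 11.4 expected (0.616 times, 0.248 to 1.27). Itga9, an integrin gene, had 9 fragments over a width of 862 bp, and Lpp, a focal adhesion gene, had 9 fragments.

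Extracellular matrix genes held 9 members in 8 of 37 genes, against 7.66 expected. The largest was in Col5a1, a fibrillar collagen gene, with 27 fragments and a 7.73-fold enrichment. Adamts1, a secreted protease gene, had 12 fragments, and Fbn2, the fibrillin-2 gene, had 8. Genes of TGF-beta, BMP and SMAD signalling held 5 members in 4 of 26 genes, against 3.29 expected. Their inhibitory members Smad7 and Smad6 had 13 and 12 fragments, the coreceptor gene Tgfbr3 had 2 members with 7 and 5 fragments, and the repressor gene Ski had 1 with 4. Wnt and Hippo genes held 7 members in 7 of 30 genes, against 4.30 expected. Vgll4, which encodes a TEAD cofactor, had 13 fragments, and Tead1, Tead4, Wnt5a, Ror2 and Ryk had 4 to 6. None of these 3 lists had an interval that left out 1.

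Growth factor receptor and Ras-MAPK genes held 4 members in 3 of 29 genes, against 4.49 expected, with Igf1r, the IGF-1 receptor gene, at 13 fragments and an 8.71-fold enrichment, the kinase gene Map2k1 at 9 fragments and Ddr2, a collagen receptor gene, at 10 and 4. Ion channel and calcium genes held 7 in 6 of 30, against 10.8 expected. Piezo1, a mechanosensitive channel gene, had 12 fragments, Stim1 and the calcium channel subunit gene Cacnb2 had 9 each, and Cacna1c, Ryr3 and Itpr2 had 4 to 7. Cyclic nucleotide and kinase genes held 8 in 6 of 26, against 11.8, among them 2 in the phosphodiesterase gene Pde4d with 9 and 5 fragments. Transcription factors of mesenchymal cells held 11 in 8 of 46, against 13.3. Nr3c1, the glucocorticoid receptor gene, had 16 fragments, Foxo3 12, Rbpj 11, Runx1 10 and 6, and Mef2c 5 and 4. Metabolic genes held 5 in 4 of 30, against 3.64, in Cpt1a (8 and 6 fragments), which encodes a gatekeeper of fatty acid oxidation, Ppargc1b (8), Pparg (5) and Scap (5). Inflammation genes held 1 in 1 of 27, against 1.24, in Il1r1, the interleukin-1 receptor gene, with 7 fragments. Oxidative stress, autophagy and lysosome genes held 2 in 2 of 28, against 2.43, in Gpx4 and Atg5.

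**Figure D5:**
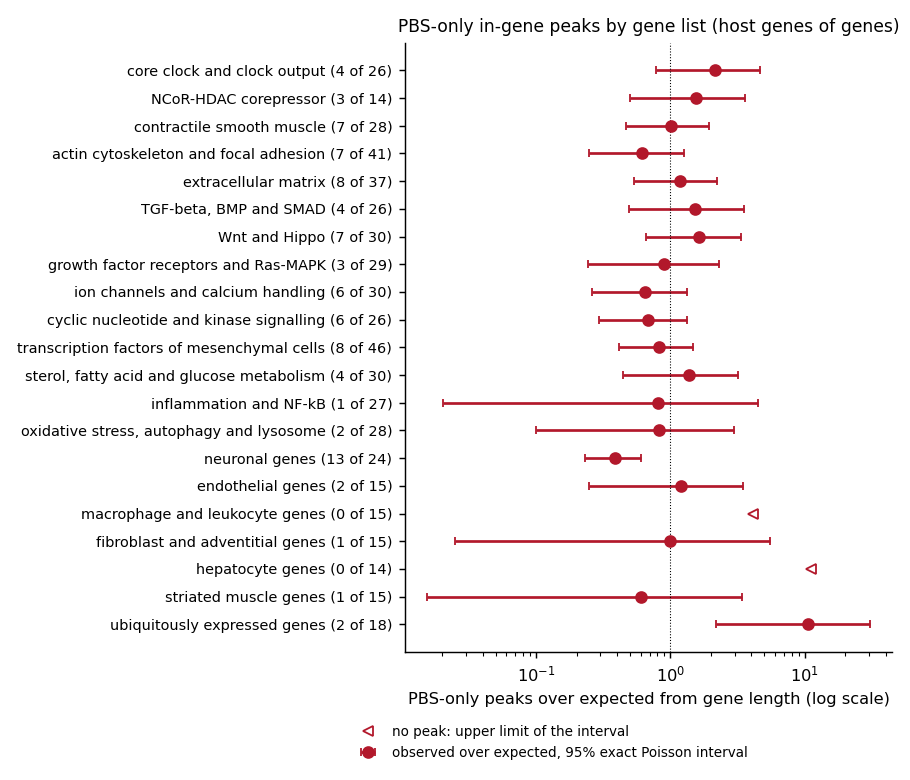
PBS-only in-gene peaks over the number expected from gene length at the protein-coding rate (horizontal axis, log scale) for 21 gene lists (vertical axis, with host genes of genes in brackets), with 95% exact Poisson intervals, an open triangle marking the upper limit where a list holds no peak, and 1 as a dotted line. The neuronal list lies below 1 and the list of ubiquitously expressed genes above 1, and the intervals of the other lists include 1. With the rate of its own length class, not drawn, the neuronal interval also includes 1.

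Among lists of other cell types, neuronal genes, with a median length of 1135 kb, held 19 members in 13 of 24 genes, against 49.2 expected, 0.386 times (0.232 to 0.603). With the rate of their own length class the expected number was 26.0 and the ratio 0.730 (0.439 to 1.14). Ctnna2, which encodes a neuronal catenin, held 3 with 6 to 7 fragments, and Dlg2, a synaptic scaffold gene, held 2 with 6 and 5 fragments. Endothelial genes held 3 in 2 of 15, against 2.51 expected, in Pecam1 (11 fragments) and Mecom (6 and 5). The fibroblast list held 1, in Scara5 (8 fragments), against 1.01 expected, and the striated muscle list 1, in Neb (6 fragments), against 1.64. The macrophage and hepatocyte lists held 0, against 0.892 and 0.328 expected. Ubiquitously expressed genes held 3 members in 2 of 18, against 0.285 expected, 10.5 times (2.17 to 30.8). With the rate of their own length class the ratio was 7.63 (1.57 to 22.3). The interval took in 1 where a gap of up to 500 bp also counted as shared (7.20 times, 0.872 to 26.0), with q under 1e-05 (21.8 times, 0.551 to 121.4), and with a fold at or above the median of the PBS list, where 0 members were left. Ywhaz held 2, with 14 and 5 fragments, of which the larger was the widest member at 1229 bp and lay 15 bp from a vasostatin-2 peak. Actb, the beta-actin gene, held 1 with 11 fragments.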

How the data were processed

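Peaks come from 1 NR1D1 CUT&Tag library per treatment. Trimmomatic 0.39, BWA 0.7.17 and MACS2 2.2.7.1 and build mm10 are named, without roles or settings, in the submitters' processing notes. The deposited lists have no header and follow the caller's column order. The authors' fold is a ratio of summit to local background. The control used for that background is not given, so whether the IgG libraries entered it is not known. Each summit also carries a -log10 p-value and a -log10 q-value, as deposited (smallest -log10 q 1.31 in the vasostatin-2 list and 1.32 in the PBS list). The deposited score was not used. These values by the authors describe peaks within 1 list.

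Fragments at each summit were solved with the caller's Poisson formula, using fold and -log10 p as deposited, and 100% of peaks in both lists had a whole number within 0.0005 of the deposited value. The step was tested on simulated data. The lowest peak had 4 fragments in both lists, and the background floor was 0.381 fragments in the vasostatin-2 library and 0.310 in the PBS library. Library totals are not given in the sources used here.

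Overlap meant at least 1 bp (bedtools 2.31.1 gave the same count). Genes and starts are RefSeq's on GRCm38.p6, 49943 genes, with no exons, so exon and intron were not analysed here. Starts were listed for 27025 genes, with none on chromosome 18. Wilson, exact Poisson and exact binomial 95% intervals cover counting error only (Python 3.11.15, scipy 1.17.1, pandas 2.3.3). No test was run, as no group has replicates, and libraries may differ for technical reasons. The design named peak motifs, which without a genome were searched only in the windows at annotated starts.

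Members and gene lists were chosen with earlier results of these data known. Named genes were the 10 hosts with most members, the 10 protein-coding hosts of highest observed over expected number among those with 3 or more members, the 10 members of highest fold and the 10 of most fragments, up to 6 hosts per list, all clock and corepressor hosts, the peaks next to the rule's limits, and Nr1d1, Arntl, Chga, Acta2 and Myh11. Others were chosen after their values were seen. Some genes that the rule selects are not reported here.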

Additional observations from a re-analysis of the deposited data

How the results depend on the processing

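The count of members and of hosts stayed within 1.5 times of 1801 and 1670 under 5 of 7 alternatives. The exceptions were a q under 1e-05 (294 members, 295 hosts) and a fold at or above the median of the PBS list (589, 591). Of the settings chosen after seeing the data, at least 8 fragments left 562 members and 555 hosts. In the order q under 1e-05, fold at or above the median and at least 8 fragments, the share of the PBS list was 11.2%, 15.8% and 14.4%, the share of in-gene PBS peaks that are PBS-only 42.5%, 53.9% and 50.3%, the median fold 6.76, 6.11 and 6.04, the median fragments 11, 9 and 9, and the median width 299, 277 and 297.5 bp. These settings keep larger peaks by construction.

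Requiring an overlap of 0.5 of both peaks gave 27.1% of the list, 78.9% PBS-only and a median fold of 4.82. Requiring summits within 200 bp gave 26.1%, 76.1% and a median width of 258 bp. With 3 kb from every gene end the share of the list was 19.8%, and with protein-coding genes only 22.1%. The density ratio of genes under 30 kb over genes above 300 kb stayed above 1 in every setting run, at 2.01 to 2.50 apart from 4.07 with q under 1e-05 and 6.29 with at least 8 fragments. The share within 1 kb of an annotated start, a result added after seeing the data, was 13.3% with q under 1e-05, 6.02% with 3 kb, 12.4% with protein-coding genes only and 15.1% with at least 8 fragments, and 9.11% without members within 5 kb of a shared peak.

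Among the 21 gene lists the observed over expected ratio left its own interval in 17 of 168 settings. The neuronal ratio stayed below 1 (0.0652 to 0.424), that of ubiquitously expressed genes ranged from 0 to 22.5, that of clock genes from 1.12 to 4.43 and that of corepressor genes from 0.971 to 4.97. All these settings used a single rate for all protein-coding genes, and none was run with length-class rates. With length-class rates the neuronal ratio in the main setting was 0.730 (0.439 to 1.14), an interval that includes 1. No paired analysis was possible because each treatment has 1 NR1D1 library and no result comes from a test. Most members rest on 4 to 8 fragments, and library totals are not given in the sources used here.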
